A study of Mus musculus with 38 samples.

Results

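The 78 protein-coding genes whose symbols start with Mrpl or Mrps, the nuclear genes for proteins of the mitochondrial ribosome, were followed through polysomes of mouse oocytes and early embryos. They were taken by symbol from a table of 23125 genes, and comprise 49 Mrpl and 29 Mrps genes on 17 chromosomes. RNA of ICR mice of at least 6 weeks, stimulated with pregnant mare serum gonadotropin, was sequenced at 6 stages. These were the GV oocyte (germinal vesicle, meiotic prophase) and the MII oocyte (metaphase II, after 12 h of culture). The rest were the zygote, the two-cell embryo and both of these in M-phase (zygote M and two-cell M). Females giving embryos also received human chorionic gonadotropin before mating. Zygotes were recovered from oviducts, and embryos were cultured in KSOM medium up to the two-cell stage. GV oocytes were isolated with IBMX, which prevents the resumption of meiosis. Oocytes and embryos thus also differed in hormones and culture. Only the M-phase embryos had received 10 µM nocodazole, a drug that blocks the spindle, so that drug and M-phase cannot be told apart in embryos. The labels call the M-phase of embryos meiotic, although embryos divide by mitosis. All lysates contained cycloheximide, which holds ribosomes on the mRNA, and were spread over 10 fractions of a sucrose gradient. The lighter 5 were pooled as the non-polysome fraction and the heavier 5 as the polysome fraction, with 3 libraries of each per stage. Each library held a pool of oocytes or embryos. The study calls the libraries of a group biological replicates, without saying whether they came from separate mice, so the p-values measure the spread between these libraries.

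Mitochondrial ribosomes translate the few mRNAs of the mitochondrial genome, which encode core subunits of the respiratory chain and of ATP synthase. Their RNAs are mitochondrial, but all their proteins are encoded in the nucleus, translated by cytosolic ribosomes and imported, so the polysomes measured here are cytosolic. The large subunit joins amino acids, the small subunit decodes the mRNA, and many of the proteins have counterparts in bacteria while others exist only in mitochondria. Oocytes hold a large store of mitochondria that is passed to the embryo. The deposited values held 0 genes with the mt- prefix of the mitochondrial genome, so the mitochondrial mRNAs themselves could not be analysed here.

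By their place in the structure, 51 members belonged to the large and 26 to the small subunit, as Mrps30 and Mrps18a are large subunit proteins despite their names. Mrps36 was kept apart, since its protein is known as a subunit of the 2-oxoglutarate dehydrogenase complex. Counterparts in bacteria are known for 46 members, and 31 are specific to mitochondria. Exons of 23 members overlap those of another protein-coding gene in the GRCm38 annotation, on 1 strand or the other. The kit used for the libraries is not one that keeps the strand, so reads of such partners cannot be told apart (Mrpl14 and Tmem63b, Mrpl18 and Tcp1, Mrpl43 and Twnk, Mrps34 and Mapk8ip3, among others).

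Promoter sequences of RefSeq (GRCm38.p6) were found for 69 members, as windows of 300 bases with 250 before the transcript start. The letters CCGGAAG, the kind of site that ETS family factors bind, were found on either strand in 26 of the 69, or 37.7%. They were in 41.3% of the windows of cytosolic ribosomal protein genes and in 9.93% of those of all 27025 genes with a window. That background for promoter shares holds genes by RefSeq symbol, whether tested here or not. The CCGGAAG sites are shown for Mrpl34, the member with the highest mean over all polysome libraries, and for 3 members that rose from GV to MII. Those 3 were the ones with the motif among the 6 called higher in MII, as Mrpl2, Mrpl12 and Mrpl14 lacked it. The motif or its reverse complement CTTCCGG is in capitals.
Mrpl34 (chr8:71464878-71464907, plus strand): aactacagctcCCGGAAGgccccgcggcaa
Mrpl22 (chr11:58171600-58171629, plus strand): cttttccggtcCCGGAAGccggcctcggac
Mrpl51 (chr6:125192099-125192128, plus strand): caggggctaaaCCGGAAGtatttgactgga
Mrps18c (chr5:100798592-100798621, plus strand): gggtcacgtgaCTTCCGGcccgggaagcgc
The motif began 37 bases before the transcript start in Mrpl34, 53 in Mrpl22, 90 in Mrpl51 and 156 in Mrps18c. AAGATGGC, the core of YY1 sites, was in 17.4% of the members' windows, 9.52% of those of cytosolic ribosomal protein genes and 3.19% of all windows. GCATGCGC, part of NRF1 sites, was in 11.6%, 4.76% and 3.05%. CCGGAAG ends and AAGATGGC begins with AAG, so those matches can overlap.

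The mark of terminal oligopyrimidine (TOP) mRNAs is a C followed by 4 pyrimidines at the start. At the annotated start it was found in 20.6% of cytosolic ribosomal protein genes, 0 of the 69 members and 3.01% of all genes with a window. Within 5 bases of the start the shares were 46%, 24.6% and 21.2%. Of the 6 members called higher in MII polysomes than in GV, 3 had such a run within 5 bases (Mrpl12, Mrpl14 and Mrpl22). Shown next are windows with the first transcribed base in capitals for 5 members that rose in MII, and the pyrimidine start in capitals for Rps6 and Rpl35. These cytosolic ribosomal protein genes were chosen after their sequences had been seen. Rpl18, another such gene, was also looked at, began with a G at the annotated start and is not shown.
Mrpl12 (chr11:120484622-120484651, plus strand): agctcgcctcctcccGgatagagcgtcgct
Mrpl22 (chr11:58171649-58171678, plus strand): ccggcgtttgatcccGgaggcttccgtagg
Mrpl14 (chr17:45686334-45686363, plus strand): ctcacggagaaccccTggcgcgcaggcgca
Mrpl51 (chr6:125192185-125192214, plus strand): gggatgactccctaaGctacctgggtaagg
Mrps18c (chr5:100798744-100798773, plus strand): gaaaggaagaggaagGgcggagaaccatgg
Rps6 (chr4:86857353-86857382, minus strand): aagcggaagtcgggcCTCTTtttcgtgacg
Rpl35 (chr2:39005117-39005146, minus strand): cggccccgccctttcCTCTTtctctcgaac

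The labelled cells were checked against marker genes. All 12 oocyte markers were present in GV, where they summed to 6297 to 7405 FPKM (fragments per length of transcript and per library size) in polysomes, against 58.9 to 237 in two-cell M. The 8 markers of two-cell embryos were Zscan4 genes, Zfp352, Tcstv1 and Tcstv3. They summed to 124 to 192 FPKM in two-cell polysomes, less than the 176 to 323 in GV, and to 9.32 to 127 in two-cell M. In the non-polysome fraction they summed to 425 to 711 in two-cell, 24.9 to 339 in two-cell M and 141 to 204 in GV. All 8 had means of at least 1 FPKM in two-cell polysomes, against 2 in those of GV. Tcstv1 and Tcstv3, at the floor in 0 libraries, reached 288 and 364 FPKM. The Zscan4 genes reached at most 42.3 and Zfp352 at most 14.3 FPKM in any library. Markers of cumulus and granulosa cells summed to at most 4.75 FPKM in polysomes and to 23.6 at most in the other fraction, and those of sperm to at most 6.33, GV included. Those of blood summed to at most 1.33 up to zygote M, to 34.3 to 83.7 in two-cell polysomes, mostly Hba-a1, and to 24.4 to 42.5 in two-cell M. In the non-polysome fraction they summed to at most 0.861 up to zygote M, to 99.7 to 162 in two-cell and to 0.04 to 52.6 in two-cell M. Those of the oviduct summed to 9.42 to 25.6 in two-cell polysomes and 6.99 to 24.4 in the non-polysome fraction, with 0.48 to 1.07 and 2.45 to 7.1 in two-cell M. Of the oviduct markers, Ovgp1 and Foxj1 reached at most 0.104 and 0.144 FPKM in any library, against 7.07 for Epcam and 25.1 for Krt18. Of the blood markers, Hbb-bs and Hbb-bt reached at most 0.426 and 0.331 FPKM, against 160 for Hba-a1 and 2.64 for Hba-a2. Whether blood or oviduct cells had a part in the two-cell values was not tested. The two-cell M libraries stood apart from the rest. Of the 7967 genes tested, 17.9% to 29.4% were at the floor of the table, 0.01 FPKM, in their polysomes, against 1.66% to 6.61% in GV, MII and zygote. In the non-polysome fraction of two-cell M they were 27.9% to 31.8%, and 13.3% to 22.5% in that of two-cell. The median gene tested had 0.21 to 0.534 FPKM in two-cell M polysomes and 0.0394 to 0.0847 in the non-polysome fraction, against 0.821 to 0.93 and 0.475 to 1.11 in two-cell. As the fit pools the spread of all libraries, each count of calls outside the two-cell stages is also given without the two-cell and two-cell M libraries, an alternative chosen after seeing the data. The depth behind the values is unknown.

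The summed level of the 78 members was highest in MII. In polysomes it was 930, 1249 and 713 FPKM in the 3 GV libraries and 1440, 1496 and 1498 in MII. It then lay at 583, 624 and 673 in zygotes, 546, 564 and 524 in zygote M, 306, 477 and 315 in two-cell and 511, 609 and 543 in two-cell M. Every MII library was above every library of the other stages, and the zygote, zygote M and two-cell M sums lay close to each other. As a percentage of the FPKM of all genes in each library these 3 stages lay further apart. They had 0.656% to 0.695% in zygotes, 0.493% to 0.5% in zygote M and 0.356% to 0.497% in two-cell M. Zygote libraries were above those of two-cell and of zygote M without overlap. In the non-polysome fraction the sum was 1657 to 2226 in MII and at most 1287 in any library of another stage. FPKM is a share of each library, so fewer cells or less RNA per cell cannot be told apart from such values, nor can a change in the rest of the RNA.

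**Figure D1:**
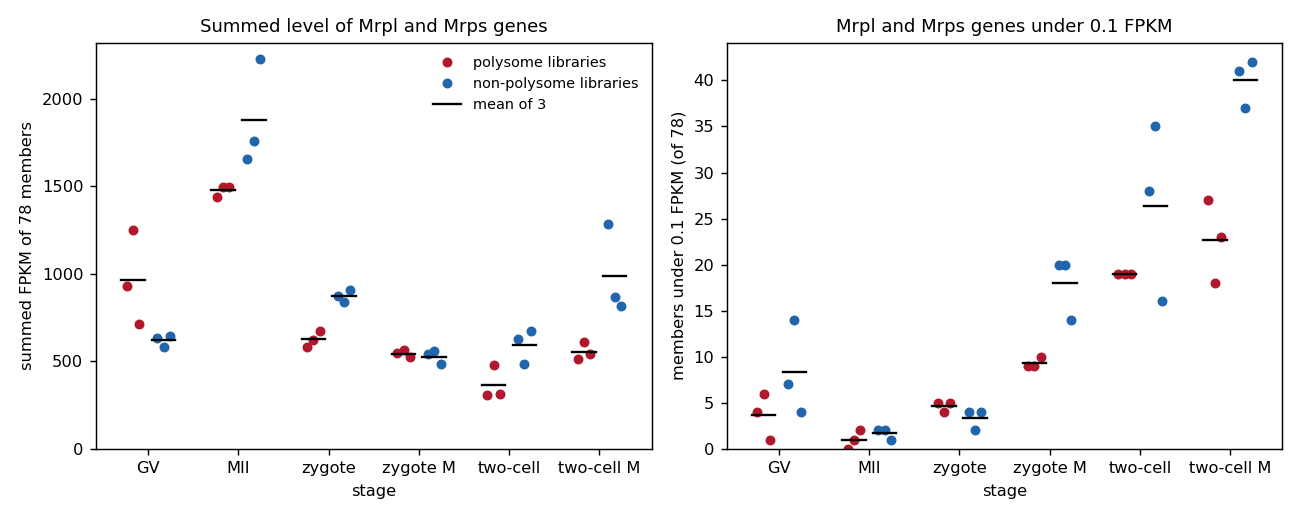
Left, the summed FPKM of the 78 genes in each library, by stage. Right, the number of the 78 under 0.1 FPKM. Red points are polysome and blue points non-polysome libraries, and bars are means of 3 libraries. The MII sums lie above those of the other stages, and members near the floor are most frequent in two-cell and two-cell M.

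A few genes held much of this sum. Mrpl34, a small large-subunit protein, had the highest mean over the 18 polysome libraries, 122 FPKM, and its share of the sum ran from 3.45% to 42.8% over all 36 libraries. Its stage mean was the highest of all members at each stage other than zygote M, where Mrpl53 (93.7 FPKM), Mrpl9 (50.5) and Mrpl18 (27.7) were above Mrpl34 (26.1). It was followed by Mrpl53, with 61.0, Mrpl9, with 39.7, Mrpl12, with 37.8, and Mrps7, with 30.8 FPKM. Without Mrpl34 the polysome sum was 656 to 937 FPKM in GV, 1232 to 1285 in MII, 238 to 360 in two-cell and 348 to 404 in two-cell M. The median member had 6.28 to 7.91 FPKM in MII polysomes and 1.07 to 1.96 in two-cell. The large subunit sum exceeded that of the small subunit 2.37 to 5.44 times in the 36 libraries.

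At the other end, members under 0.1 FPKM numbered 0 to 6 in the polysome libraries of GV, MII and zygote, 9 to 10 in zygote M, 19 in each two-cell library and 18 to 27 in two-cell M. In the non-polysome fraction of two-cell M they were 37 to 42 of 78. No member was at the floor in most libraries. Mrpl19 came closest, at the floor in 13 of 36, and was 1 of 5 members that did not pass the minimum for testing, a geometric mean of 0.1 FPKM over all libraries, with Mrpl1, Mrpl23, Mrpl33 and Mrps9. The remaining 73 were tested.

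A stage effect in polysomes was found for 47 of the 73 members by limma's moderated F-test, against 62.9% of all genes tested. Over the 4 stages other than two-cell and two-cell M it was found for 50, against 41.8%. The highest stage mean, in FPKM, was that of MII in 36 members (49.3%, against 23.6% of all genes) and of GV in 21 (28.8%, against 23.3%). It was that of two-cell M in 8 members, of zygotes in 6 and of zygote M in 2, against 18.3%, 15.4% and 11.5% of all genes. No member had its highest mean in two-cell, against 7.79% of all genes. Among the members with a stage effect, 21 were highest in MII, such as Mrpl12, Mrpl2 and Mrps25, and 15 in GV, such as Mrpl9, Mrpl18, Mrpl45 and Mrps31. A further 7 were highest in two-cell M (Mrpl13, Mrpl20, Mrpl43, Mrpl49, Mrps6, Mrps26 and Mrps34), 3 in zygotes (Mrpl16, Mrps2 and Mrps27) and Mrpl48 in zygote M.

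The first comparison asked which members changed in polysomes as oocytes matured from GV to MII. Calls needed a log2 fold change beyond 1 and an adjusted p from limma below 0.05. In MII 6 members were called higher (Mrps18c, Mrpl22, Mrpl2, Mrpl14, Mrpl12 and Mrpl51) and 1 lower (Mrps31). Of all genes 6.11% were called, 3.36% higher and 2.75% lower. Leaving out each of the 6 libraries in turn, 3 to 5 members were called, with no share of all genes for those fits. Log2 fold changes had a median of 0.88 over the 73 members, 0.18 over all genes and 1.5 over 79 cytosolic ribosomal protein genes. The 3 MII libraries lay above the 3 GV libraries in 38 of 73 members and below them in 12, against 27.3% and 20.2% of all genes. Leaving out the two-cell and two-cell M libraries, 21 members were called higher and 8 lower, where 21.4% of all genes were called, 11.8% higher and 9.59% lower. With quantile normalization, which moved the median of all genes from 0.18 to -0.13, 16 were higher and 6 lower, where 8.8% of all genes were higher and 10.6% lower.

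Mrpl12, which forms the flexible stalk that recruits translation factors, had 19.5, 29.8 and 8.35 FPKM in GV polysomes and 160, 154 and 114 in MII. The groups were far apart, and no other stage had a polysome library above 29.8. The log2 fold change was 3.06 (standard error 0.59, limma adjusted p = 0.00109). In the non-polysome fraction Mrpl12 likewise went from 6.85 ± 4.04 (SD, n = 3) to 142 ± 3.14 FPKM. Mrpl2, a conserved protein near the peptidyl transferase centre, rose by 3.39 (standard error 0.54, adjusted p = 0.000115), to 10.4 times its GV mean.

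Mrpl22, a protein of the wall of the exit tunnel, had 0.715, 0.452 and 0.408 FPKM in GV polysomes and 7.34, 7.20 and 8.63 in MII. The MII values were all above the polysome values of every other stage, of which the highest was 1.57 in a zygote library. Its log2 fold change was 3.92 (standard error 0.76, adjusted p = 0.00105). Mrps18c, a small subunit protein, had 0.838, 0.0184 and 0.479 FPKM in GV and 3.45, 5.67 and 3.78 in MII. Its rise of 4.43 (standard error 1.11, adjusted p = 0.0124) was the largest among the members called. The call was lost without GV replicate B, which held the low value (2.73), and without MII replicate B (4.21), and in a fit to only the GV and MII polysome libraries (adjusted p = 0.0602). Mrpl14, with exons that overlap Tmem63b, and Mrpl51 rose by 3.11 and 2.04. The call of Mrpl14 was lost without any 1 of the 6 libraries other than GV replicate B (2.62 to 3.28), and that of Mrpl51 without any 1 of the 6 (1.88 to 2.19). Both were lost with no minimum level (adjusted p = 0.0521 and 0.0563), and that of Mrpl51 with the letter as a block (0.0927).

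Mrps31, a mitochondria-specific small subunit protein, went the other way. Its GV polysome libraries had 2.81, 2.71 and 1.60 FPKM and its MII libraries 0.992, 0.305 and 0.273, so the groups did not overlap. The change was -2.40 (standard error 0.71, adjusted p = 0.04), and the call was lost without GV replicate A (-2.26), GV replicate B (-2.28), MII replicate B (-2.15) or MII replicate C (-2.07), and with the replicate letter as a block (adjusted p = 0.0769). It was also the 1 member called between zygote and zygote M, where it fell by 2.67 (standard error 0.71, adjusted p = 0.0203). That call was lost without zygote replicate C (-2.56) or D (-2.46) or zygote M replicate A (-2.38), with the letter as a block (-2.54, adjusted p = 0.148) and with 1 FPKM added (-0.50). By two-cell it was at 0.01, 0.01 and 0.0129, and it was listed at 0.01 in each two-cell M polysome library.

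**Figure D2:**
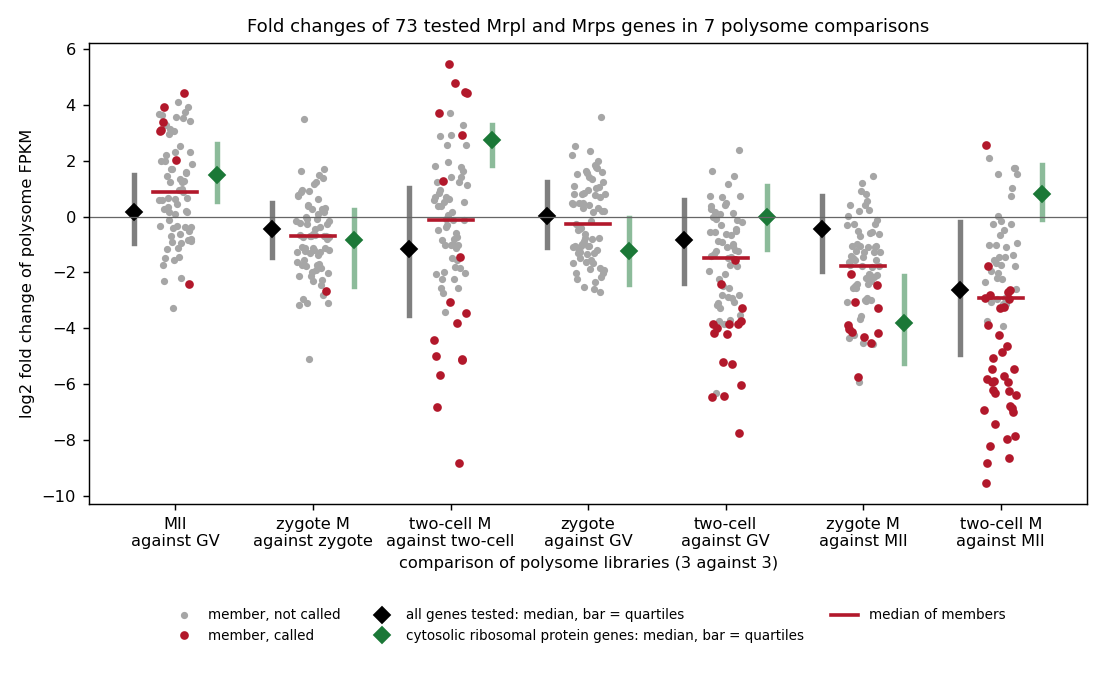
Log2 fold changes of polysome FPKM in 7 comparisons, for each of the 73 members tested (red, called; grey, not called), with the median of the members as a red line. Diamonds and bars are the median and quartiles of all 7967 genes tested (black) and of 79 cytosolic ribosomal protein genes (green). In zygote M against MII and two-cell M against MII most members lie below 0, while the cytosolic genes lie lower than the members in the first and higher in the second.

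The entry of zygotes into M-phase gave 0 members called higher and 1 lower, where 5.75% of all genes were called, 3.24% higher and 2.51% lower. At an unadjusted p under 0.05 there were 13 of 73, against 16.2% of all genes. The median was -0.70 for the members, -0.43 for all genes and -0.83 for cytosolic ribosomal protein genes, and 40 of 73 members had zygote M libraries wholly below those of zygotes (37.2% of all genes). Without the two-cell and two-cell M libraries 7 were called higher and 10 lower, where 18.2% of all genes were called, 7.74% higher and 10.5% lower. Mrpl34 had 48.1, 55.2 and 67.3 FPKM in zygotes and 18.8, 31.4 and 28 in zygote M, without overlap. It was not called in the fit to all libraries, but was called lower without the two-cell and two-cell M libraries (-1.14, standard error 0.39, adjusted p = 0.0466).

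From two-cell to two-cell M the members were divided, with 7 called higher and 11 lower, where 36.3% of all genes were called, 8.13% higher and 28.1% lower. Groups did not overlap in 17 members that were higher and 9 that were lower, against 15.1% and 28.4% of all genes. The members' median was -0.12, that of all genes -1.17 and that of cytosolic ribosomal protein genes 2.73. Quantile normalization raised the median of all genes to 0.22 and that of the members to 0.57, and then 19 members were higher and 8 lower, where 18.6% of all genes were higher and 18.7% lower, so the direction of the members as a group depended on the scaling. The members stood 1.04 above the median of all genes in the deposited scaling and 0.35 above it after quantile normalization. Called higher were Mrpl46, Mrps10, Mrps34, Mrps6, Mrpl20, Mrps26 and Mrpl34, and called lower were Mrps2, Mrpl17, Mrpl24, Mrps25, Mrps27, Mrpl14, Mrpl10, Mrps16, Mrps36, Mrpl48 and Mrps21.

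Mrps2, a conserved protein of the small subunit, had 21.1, 15.8 and 9.95 FPKM in two-cell polysomes. In two-cell M it was listed at 0.01 in 2 libraries and had 0.357 in the third. All two-cell M values were thus below those of all other polysome libraries. The change was -8.82 (standard error 1.54, adjusted p = 6.75e-05). Mrpl17, a protein at the tunnel exit, had 2.70, 5.02 and 4.92 FPKM in two-cell polysomes and 0.01, 0.467 and 0.01 in two-cell M, a change of -6.82 (standard error 1.76, adjusted p = 0.00345). Mrps25 fell by 5.12 (standard error 0.85), from 7.93 ± 1.23 to 0.603 ± 0.732 FPKM (SD, n = 3).

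Members that rose between these stages did so from scattered two-cell values. Mrpl46 had 0.01, 0.0273 and 1.49 FPKM in two-cell polysomes and 6.49, 1.81 and 2.99 in two-cell M (5.47, standard error 1.96, adjusted p = 0.0298). The call was lost without two-cell replicate A (4.02) or B (4.75) and without two-cell M replicate A (4.97) or C (5.53). Mrps34, which is mutated in forms of inherited respiratory chain deficiency, had 3.60, 4.34 and 0.01 in two-cell and 9.05, 19.2 and 9.45 in two-cell M. Its rise of 4.45 (standard error 1.38, adjusted p = 0.0126) was 1.58 and not called without two-cell replicate C, the library at the floor. Mrpl20 rose by 3.69 (standard error 1.10, adjusted p = 0.0102), a call that was lost without two-cell M replicate B, its highest library (2.76). Mrpl34 rose by 1.26 (standard error 0.42), with 46.7, 117 and 76.4 FPKM in two-cell and 160, 261 and 138 in two-cell M, and this call was lost without two-cell replicate A (0.92) or two-cell M replicate B (0.99). Other calls of this comparison that did not hold without 1 library were those of Mrpl10, Mrpl24, Mrps10, Mrps16, Mrps21 and Mrps36. When each library was left out in turn, 14 to 19 members were called, with no share of all genes for those fits. A fit to only the 6 libraries compared called 8 members, where 20.9% of all genes were called. It shared 5 with the 18, and the calls it lost included those of Mrpl46, Mrps34, Mrpl20 and Mrps25 (adjusted p = 0.102, 0.223, 0.0624 and 0.0639). That of Mrpl46 was also lost with the letter as a block (adjusted p = 0.0534) and with no minimum level (0.0602).

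**Figure D3:**
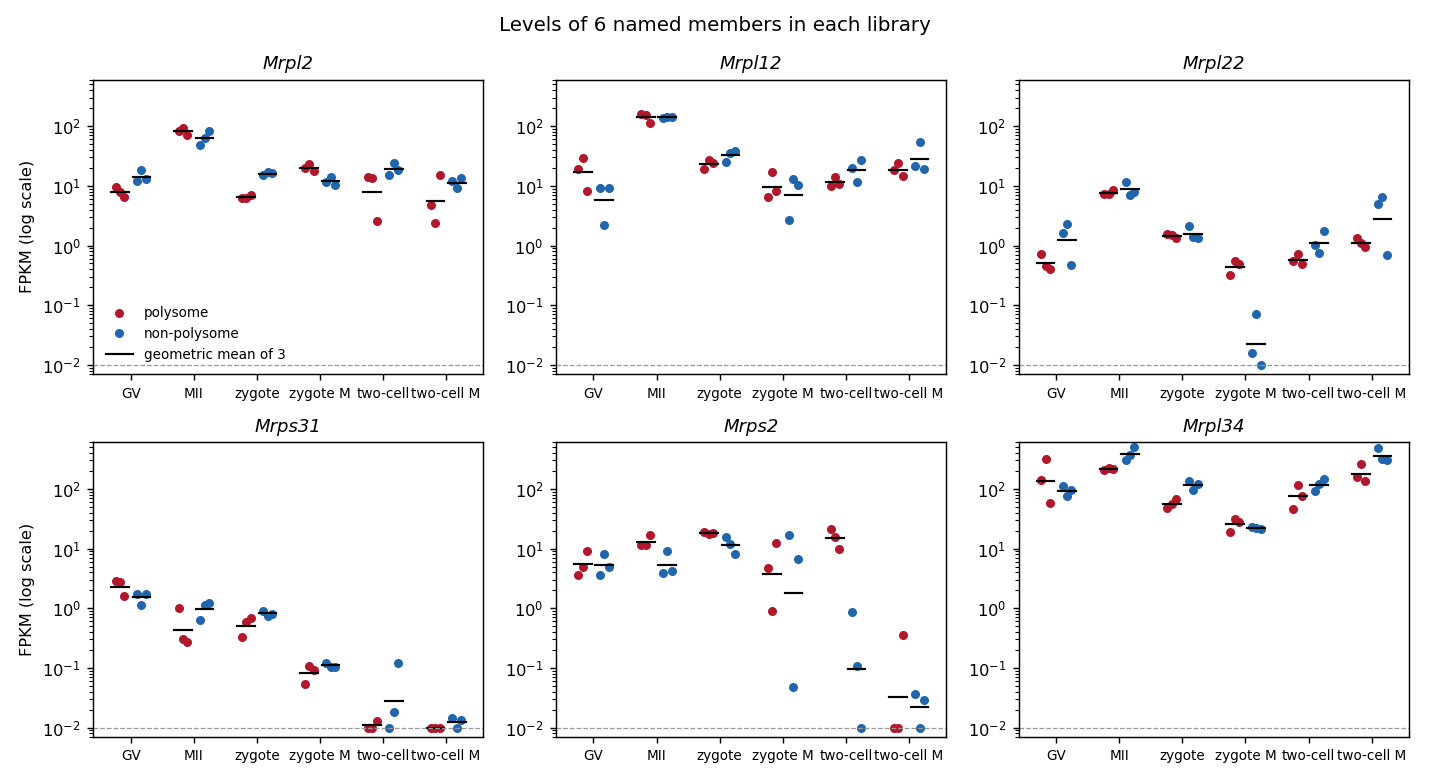
FPKM of 6 members in each library, on a log axis, by stage and fraction (red, polysome; blue, non-polysome; line, geometric mean of 3). The dashed line is the floor of the table, 0.01 FPKM. Mrpl2, Mrpl12 and Mrpl22 peak in MII in both fractions, Mrps31 declines from GV to the floor, and Mrps2 falls to near the floor in two-cell M.

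Interphase stages were compared with GV. Between zygote and GV 0 members were called by limma, where 5.61% of all genes were called, 1.73% higher and 3.88% lower, and 11 had an unadjusted p under 0.05, against 16.9% of all genes. In the fit without two-cell and two-cell M libraries 6 were higher and 17 lower in zygotes, where 19.7% of all genes were called, 8.18% higher and 11.5% lower. The members' median was -0.26 and that of all genes 0.01. Between two-cell and GV 16 members were called, all of them lower in two-cell, where 16.7% of all genes were called, 4.39% higher and 12.3% lower. It came to a median of -1.48 for the members, -0.85 for all genes and -0.02 for cytosolic ribosomal protein genes, and 59 of the 73 fold changes were negative. Leaving out each library in turn, 10 to 14 were called, with no share of all genes for those fits. Mrpl32, Mrpl52 and Mrps6 lost their calls without any 1 of 5 of the 6 libraries and Mrps21 without any 1 of 4. Of the 16, 9 were large and 6 small subunit proteins, and the last was Mrps36.

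Mrpl9, whose bacterial counterpart reaches out from the large subunit, had 104, 74.9 and 90.1 FPKM in GV polysomes and 6.11, 6.14 and 6.15 in two-cell. The groups were widely separated and the change was -3.86 (standard error 1.29, adjusted p = 0.039). The call was lost without any 1 of the 6 libraries (-3.98 to -3.74) and with no minimum level (adjusted p = 0.0646). Exons of Mrpl9 overlap those of Oaz3. Mrps31 fell by 7.73 (standard error 0.71, adjusted p = 9.29e-09), the largest fall among these members, and Mrpl47 by 6.41 (standard error 0.96, adjusted p = 2.48e-05), from 4.5 ± 2.57 to 0.0545 ± 0.0364 FPKM (SD, n = 3). Mrpl16 had 5.57, 4.65 and 5.16 in GV and 1.93, 0.01 and 0.01 in two-cell. Its call was lost without any 1 of the 3 GV libraries or without two-cell replicate B or C, each time with a change between -6.54 and -5.20. It was also lost in a fit to only the libraries compared (adjusted p = 0.0598) and with no minimum level (0.0642).

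The M-phases of embryos were compared with MII. In zygote M 11 members were called lower and 0 higher than in MII, where 12.4% of all genes were called, 3.4% higher and 8.95% lower. Medians were -1.77 for the members, -0.46 for all genes and -3.82 for cytosolic ribosomal protein genes. The 3 zygote M libraries lay below the 3 MII libraries in 52 of 73 members (36.4% of all genes). Without the two-cell and two-cell M libraries 34 members were lower and 2 higher, where 28.5% of all genes were called, 19.2% lower and 9.3% higher. Mrpl12 had 6.57, 16.9 and 8.19 FPKM in zygote M, against 114 to 160 in MII, a change of -3.87 (standard error 0.59, adjusted p = 3.78e-05). Mrpl34, at 18.8 to 31.4 against 208 to 221 FPKM, fell by 3.07 (standard error 0.42, adjusted p = 6.44e-06).

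Mrpl39, a mitochondria-specific protein, had 2.48, 1.72 and 2.03 FPKM in MII polysomes and 0.0646, 0.01 and 0.088 in zygote M. It had the largest fall of those called, -5.74 (standard error 1.36, adjusted p = 0.00452), followed by Mrps18c, with -4.51 (standard error 1.11). Mrpl52, at 5.23, 7.60 and 5.49 in MII and 0.541, 0.243 and 0.209 in zygote M, changed by -4.32 (standard error 1.3, adjusted p = 0.0255). That call was lost without any 1 of the 3 MII libraries or without zygote M replicate B or C, with changes of -4.42 to -4.05. That of Mrps35 was likewise lost in 5 of the 6 such fits (-4.33 to -3.94). With the letter as a block the calls of Mrps35 and Mrps36 were lost (limma adjusted p = 0.0612 and 0.0543). When each library was left out in turn, 7 to 9 members were called, with no share of all genes for those fits.

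In two-cell M 35 members were called lower and 1 higher than in MII, where 53.0% of all genes were called, 7.86% higher and 45.2% lower. Medians were -2.92 for the members and -2.64 for all genes, and 0.79 for cytosolic ribosomal protein genes. With quantile normalization it was -1.51 for the members and -0.14 for all genes, and 27 members were lower and 6 higher, where 23% of all genes were lower and 22.7% higher. Mrpl14 had 26.9, 32.3 and 20.7 FPKM in MII and 0.01, 0.443 and 0.01 in two-cell M (-9.53, standard error 0.92, adjusted p = 2.75e-09). Falls of -8.82 and -8.63 were found for Mrpl17 and Mrps2. Mrpl13 was the 1 member called higher, with 0.474, 0.304 and 0.45 FPKM in MII and 2.17, 2.94 and 2.05 in two-cell M (2.55, standard error 0.80, adjusted p = 0.00919). Its exons overlap those of Mtbp.

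Whether the step into MII differed from the step into an embryonic M-phase was tested directly, a contrast added after the data had been seen. The change from GV to MII exceeded that from zygote to zygote M for 5 members (Mrps18c, Mrpl39, Mrpl22, Mrpl12 and Mrpl51) and was below it for Mrpl57, where 9.51% of all genes were called, 5.06% as larger and 4.46% as smaller. The difference for Mrpl12 was 4.32 (standard error 0.84, limma adjusted p = 0.000779), and for Mrpl22 5.65 (standard error 1.07, adjusted p = 0.000584). The call of Mrpl51 (2.68) was lost without any 1 of the 12 libraries (2.51 to 2.82). It was also lost with the letter as a block (adjusted p = 0.138) and with no minimum level (0.0591). Mrpl57 moved in opposite directions, with means of 27.8 FPKM in GV and 11.3 in MII against 8.13 in zygotes and 19.7 in zygote M. Its call (-2.37, adjusted p = 0.046) was lost without any 1 of the 12 libraries other than GV replicate C (-2.56 to -1.88), and with the letter as a block (adjusted p = 0.0567). That of Mrpl39 (6.21, adjusted p = 0.0379) was lost without 9 of the 12, at values of 5.24 to 6.41, and with the letter as a block (adjusted p = 0.12). Both were also lost with no minimum level (adjusted p = 0.0548 for Mrpl57 and 0.0603 for Mrpl39). In the fit without two-cell and two-cell M libraries 27 members had a larger change into MII and 5 a smaller one, where 28.1% of all genes were called, 16.4% as larger and 11.7% as smaller. Against the change from two-cell to two-cell M, 11 members had a larger and 3 a smaller change into MII, where 23.5% of all genes were called, 18.7% as larger and 4.83% as smaller. With quantile normalization these were 13 and 13, where 14.5% and 15.8% of all genes were called. Leaving out each of the 12 libraries in turn, 8 to 11 of the members were called, with no share of all genes for those fits. Of the 14 calls, that of Mrpl45 was lost in all 12 of these fits, and those of Mrpl10 and Mrpl22 in 11. Those of Mrpl12 and Mrpl24 were lost in 10, of Mrps26 in 7 and of Mrps6 in 5. With the letter as a block the calls of Mrpl12 and Mrpl22 were lost (adjusted p = 0.0621 and 0.0536).

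Polysome and non-polysome fractions were then compared within each stage, as levels relative to each library and not as a share of transcripts on polysomes. In GV 1 member was called, Mrpl43, where 4.96% of all genes were called, 2.61% higher and 2.35% lower in polysomes. Polysome libraries lay wholly above the non-polysome libraries in 20 members and wholly below in 6, against 19.9% and 13.9% of all genes. Mrpl43 had 4.59, 5.11 and 5.06 FPKM in polysomes and 0.344, 0.101 and 0.251 in the non-polysome fraction (4.58, standard error 1.35, adjusted p = 0.0455). The fractions did not overlap, but the call was lost without any 1 of the 6 libraries (4.07 to 4.95), with the letter as a block (adjusted p = 0.178), with no minimum level (0.08) and with 1 FPKM added (0.0541). In the fit without two-cell and two-cell M libraries 17 members were higher and 4 lower in GV polysomes, where 23% of all genes were called, 14.4% higher and 8.56% lower. In MII and in zygotes 0 members were called by limma, where 0.753% and 1.38% of all genes were called, 0.0502% and 0.0377% as higher in polysomes. At each of these stages 3 members had an unadjusted p under 0.05, against 6.14% and 7.38% of all genes. Without two-cell and two-cell M libraries 1 was lower in MII polysomes and 3 in those of zygotes, where 3.75% and 6.31% of all genes were called.

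The members' median of polysome over non-polysome level was 0.78 in GV, -0.25 in MII and -0.45 in zygotes, with 0.56, -0.04 and -0.24 for all genes. It was 0.90 in two-cell M, with 0.37 for all genes, -0.06 in two-cell, with 0.28, and 0.45 in zygote M, with 0.31. In MII 25 members had polysome libraries wholly below the non-polysome libraries and 5 wholly above, against 18.5% and 13.2% of all genes. Across the 73 members, the log2 of polysome over non-polysome level had a rank correlation with coding length of 0.64 in MII and 0.39 in zygotes, and of 0.33 and 0.23 across protein-coding genes. In two-cell and two-cell M it was 0.12 and 0.04 for the members and higher, 0.23 and 0.15, for protein-coding genes. In GV it was 0.14 and 0.08, and in zygote M -0.04 and -0.01. These points share their libraries. FPKM is divided by gene length in both fractions, a factor that cancels in the ratio where the same length was used. Members are short, with a median coding length of 576 bases against 1137 for protein-coding genes tested.

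**Figure D4:**
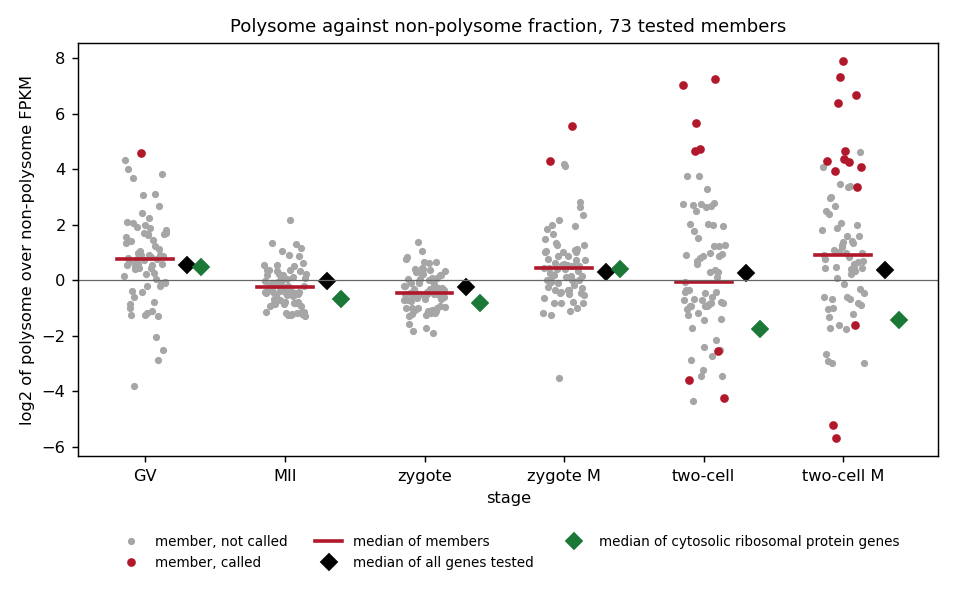
Log2 of polysome over non-polysome FPKM for the 73 members tested at each stage (red, called; grey, not called). Red lines are medians of the members, black diamonds of all genes tested and green diamonds of cytosolic ribosomal protein genes. The spread of the members is narrow in MII and zygote and wide in two-cell and two-cell M.

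In zygote M 2 members were called higher in polysomes and 0 lower, where 1.92% of all genes were called, or 6 and 0 without the two-cell and two-cell M libraries (8.95% of all genes). Mrpl22 had 0.319, 0.542 and 0.487 FPKM in polysomes and 0.0157, 0.0717 and 0.01 in the non-polysome fraction (4.29, standard error 0.76, adjusted p = 0.00274). Mrps15, a conserved small subunit protein, had 0.537, 0.473 and 0.678 in polysomes against 0.01, 0.0169 and 0.01 (5.55, standard error 1.24, adjusted p = 0.0158). The call of Mrps15 was lost without any 1 of the 3 polysome libraries (5.4 to 5.66) and with the letter as a block (adjusted p = 0.116). That of Mrpl22 was lost in a fit to only the libraries compared (adjusted p = 0.111) and with quantile normalization (0.0965), and both were lost with 1 FPKM added (0.637 for Mrpl22 and 0.382 for Mrps15). For both members, every polysome library was above every non-polysome library, although neither reached 1 FPKM.

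In two-cell embryos 5 members were called higher and 3 lower in polysomes, where 16.1% of all genes were called, 9.69% higher and 6.38% lower. With the letter as a block 3 were called, where 6.88% of all genes were called, and in a fit to only the libraries compared 2, where 6.89% were. Leaving out each library in turn, 4 to 14 were called, with no share of all genes for those fits. The calls of Mrpl36 and Mrpl38 were lost in 5 of the 6 fits, of Mrpl44 in 4 and of Mrps6 in 3. Mrps2 had 21.1, 15.8 and 9.95 FPKM in polysomes and 0.867, 0.107 and 0.01 in the non-polysome fraction (7.26, standard error 1.54, adjusted p = 0.00192). Mrpl11, which sits at the base of the stalk, had 1.31, 3.08 and 1.13 against 0.01, 0.01 and 0.0203 (7.03, standard error 1.63, adjusted p = 0.00388). Neither overlapped between fractions, but the call of Mrps2 was lost in the fit to only the libraries compared (adjusted p = 0.057), and that of Mrpl11 with 1 FPKM added (0.0941). Mrps26 was lower in polysomes, at 6.13, 3.13 and 0.655 against 10.1, 18.7 and 13.2 FPKM (-2.55, standard error 0.68, adjusted p = 0.0102), a call that was lost without polysome replicate C (-1.63) and in the fit to only the libraries compared (adjusted p = 0.166). Mrpl20 was lower by 3.60 (standard error 1.10, adjusted p = 0.0258). This call was lost without polysome replicate A (-3.44) or C (-3.13) and without non-polysome replicate A (-3.41) or B (-3.19), with the letter as a block (adjusted p = 0.0727) and with only the libraries compared (0.0829).

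In two-cell M 11 members were called higher and 3 lower in polysomes, where 14.8% of all genes were called, 9.7% higher and 5.06% lower. Polysome libraries had a median log2 level of -1.59 over the genes tested, against -4.09 for non-polysome libraries (means of 3), a gap whose part in this split was not tested. With quantile normalization 7 members were higher and 2 lower, where 4.64% and 3.21% of all genes were. With the letter as a block 6 were called, where 7.25% of all genes were called. In a fit to only the libraries compared 0 were called, where 0.238% of all genes were called. Leaving out each library in turn, 9 to 18 were called, with no share of all genes for those fits. The calls of Mrpl41, Mrpl53 and Mrps10 were lost in 4 of the 6 fits and of Mrpl37 in 3. Mrpl44, a protein with a ribonuclease fold that is mutated in an inherited cardiomyopathy, had 7.82, 5.49 and 0.309 FPKM in polysomes and 0.01, 0.0317 and 0.01 in the non-polysome fraction (7.33, standard error 1.43, adjusted p = 0.000679). Its adjusted p was 0.0109 with the block and 0.162 with only the libraries compared. Mrpl39 went the other way, at 0.01, 0.0176 and 0.01 in polysomes against 2.89, 0.0554 and 1.41 (-5.66, standard error 1.36, adjusted p = 0.00499), a call that was lost with the letter as a block (-5.45, adjusted p = 0.0529) and with only the libraries compared (adjusted p = 0.273). Mrps21 was lower in polysomes by 1.60 (standard error 0.55, adjusted p = 0.0483), a call that was lost without polysome replicate A (-1.24) or C (-1.74) or non-polysome replicate A (-1.40) or C (-1.58), and under 5 of the other settings (adjusted p = 0.0513 to 0.323).

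Whether a change into M-phase differed between the fractions was tested by the interaction. From GV to MII and from zygote to zygote M 0 members were called by limma, where 0.163% and 0.289% of all genes were called, with 6 and 8 at an unadjusted p under 0.05, against 7.37% and 7.52% of all genes. The fit without two-cell and two-cell M libraries gave 7 and 6, where 5.46% and 3.11% of all genes were called. From two-cell to two-cell M 4 members were called, 3 with a larger change in polysomes and 1 with a smaller one, where 5.75% of all genes were called, 3.2% as larger and 2.55% as smaller. Leaving out each library in turn, 4 to 9 were called, with no share of all genes for those fits. In a fit to only the 12 libraries compared Mrps23 was called (adjusted p = 0.0265), while Mrpl49, Mrpl18 and Mrpl32 were not (adjusted p = 0.0974, 0.159 and 0.379), where 1.37% of all genes were called.

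Mrpl49 had 0.792, 0.01 and 2.18 FPKM in two-cell polysomes and 4.91, 0.70 and 11.3 in two-cell M polysomes. Its non-polysome values were 2.55, 5.62 and 0.967 in two-cell and 0.0299, 0.01 and 0.01 in two-cell M. The polysome groups thus overlapped, while the non-polysome groups were far apart. The median of all genes tested also fell in the non-polysome fraction between these stages, from 0.475 to 1.11 FPKM in two-cell to 0.0394 to 0.0847 in two-cell M. After quantile normalization, which gives the libraries 1 distribution, the 4 members were still called (Mrpl49 8.0, Mrps23 5.16, Mrpl18 2.94 and Mrpl32 -4.97). In the deposited scaling the difference between the changes of Mrpl49 was 11.09 (standard error 2.21, adjusted p = 0.00201), and exons of Mrpl49 overlap those of Syvn1.

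Mrps23 and Mrpl18 had the same pattern. Mrps23, a mitochondria-specific protein, had 1.59, 3.72 and 0.716 FPKM in two-cell and 9.14, 6.46 and 1.35 in two-cell M polysomes, which overlapped. In the non-polysome fraction it went from 19, 4.52 and 4.22 to 0.033, 0.126 and 0.0182 (difference 8.81, standard error 1.08, adjusted p = 2.65e-06). Mrpl18, whose bacterial counterpart binds the 5S rRNA, had 4.92 ± 1.90 and 6.06 ± 0.715 FPKM (SD, n = 3) in polysomes and 9.40 ± 0.578 and 0.695 ± 0.974 in the non-polysome fraction, with a difference of 5.31 (standard error 0.92, adjusted p = 0.000388).

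Mrpl32, whose protein is cut by a mitochondrial protease before it joins the ribosome, was opposite. In polysomes it had 1.52, 0.334 and 0.809 FPKM in two-cell and 0.01, 2.32 and 0.173 in two-cell M, which overlapped. In the non-polysome fraction it rose from 0.0205, 0.0555 and 1.31 to 1.64, 7.91 and 15.8 (difference -7.91, standard error 1.81, adjusted p = 0.00659).

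**Figure D5:**
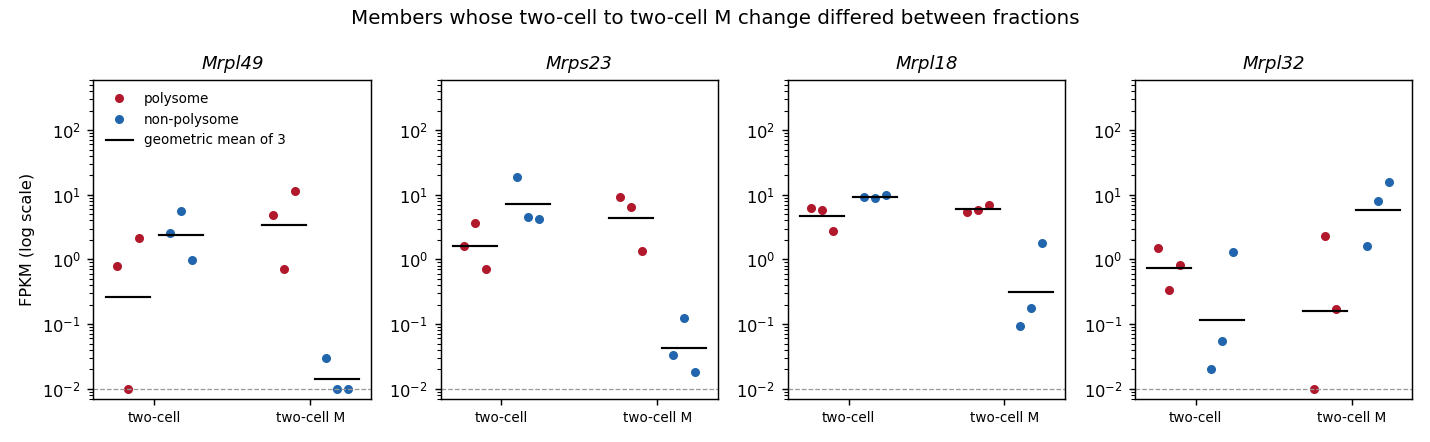
FPKM of the 4 members whose change from two-cell to two-cell M differed between fractions, for each library on a log axis (red, polysome; blue, non-polysome; line, geometric mean of 3; dashed line, floor of 0.01 FPKM). Non-polysome values of Mrpl49, Mrps23 and Mrpl18 fall between the stages and those of Mrpl32 rise, while the polysome groups overlap.

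Members by role did not share 1 pattern. Of the stalk and its base, Mrpl12 peaked in MII, whereas Mrpl10, which anchors Mrpl12, had 6.31 ± 1.66 FPKM (SD, n = 3) in GV polysomes, 9.54 ± 2.57 in those of MII and 0.549 ± 0.918 in those of two-cell M. It was not called between GV and MII (0.60, 95% interval -1.95 to 3.14). Mrpl53, a mitochondria-specific neighbour of the stalk, had 95.5 ± 48.6 in GV and 18.5 ± 14 in two-cell M, with no stage effect called over the 6 stages (adjusted p = 0.547). Without the two-cell and two-cell M libraries a stage effect was called (adjusted p = 0.0341), with Mrpl53 lower in zygotes than in GV (-1.06, standard error 0.34) and higher in zygote M than in zygotes (1.16, standard error 0.34). The conserved small subunit proteins Mrps7 and Mrps12 had their highest means in MII, at 62.0 ± 10.5 and 26.2 ± 1.31 FPKM, also with no stage effect called over the 6 stages (adjusted p = 0.621 and 0.546). Without the two-cell and two-cell M libraries both had one (adjusted p = 0.000971 and 0.0283), and the rise from GV to MII was called for Mrps7 (1.89, standard error 0.33) and Mrps12 (1.35, standard error 0.39), as was a fall from MII to zygote M. Mrps5 was highest in GV, at 1.28 ± 0.752, and fell by 6.01 to two-cell (standard error 1.60, adjusted p = 0.00961).

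Among members linked to inherited respiratory chain deficiency, Mrps16 had 33 ± 8.8 FPKM (SD, n = 3) in MII polysomes and fell by 7.94 to two-cell M (standard error 1.38, adjusted p = 2.96e-05). Mrps22 was at 2.16 ± 1.12 in MII and fell by 6.79 (standard error 1.65, adjusted p = 0.00122), and Mrpl3 at 1.29 ± 0.505 fell by 5.93 (standard error 1.64, adjusted p = 0.00365), a call lost with quantile normalization (adjusted p = 0.0508). Mrps14 was highest in GV, at 20.8 ± 7.39, and was called in none of the 7 polysome comparisons in the fit to all libraries. Without the two-cell and two-cell M libraries it was lower in zygotes than in GV (-1.32, standard error 0.36, adjusted p = 0.0117). Mrpl58, a peptidyl-tRNA hydrolase that frees stalled ribosomes, had 18.9 ± 1.03 in MII and fell by 5.72 to two-cell M (standard error 1.80, adjusted p = 0.00914), a call that was lost without two-cell M replicate A (-3.14) and in a fit to only the libraries compared (adjusted p = 0.0785). The paralogs Mrps18a, Mrps18b and Mrps18c all fell from MII to two-cell M, by 5.93, 2.95 and 6.25. Between GV and MII Mrps18c was called in the fit to all libraries, and both Mrps18a (3.52, standard error 0.92, adjusted p = 0.00873) and Mrps18c (4.43) without the two-cell and two-cell M libraries. The falls of Mrps18a and Mrps18b were not called without two-cell M replicate C (-4.07) and without any MII library or two-cell M replicate A (-3.03 to -2.45). Mrps36 fell in both comparisons with MII, from GV to two-cell and from two-cell to two-cell M. Its fall to zygote M was not called without any 1 of the 6 libraries (-3.46 to -3.12). That call was also lost with the letter as a block (limma adjusted p = 0.0543) and with no minimum level (0.0528). The fall from two-cell to two-cell M was not called without two-cell M replicate C (-2.69). It shrank to -0.47 with quantile normalization (adjusted p = 0.709) and to -0.34 with 1 FPKM added (0.264). In a fit to only the libraries compared it was -3.45 and not called (adjusted p = 0.0771).

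Large and small subunit genes had medians close to each other in the main comparisons, of 0.96 and 0.88 for MII against GV, -1.42 and -1.57 for two-cell against GV and -2.94 and -2.71 for two-cell M against MII. Members with bacterial counterparts had medians of 0.98, -1.45 and -3.05 there, and mitochondria-specific ones of 0.88, -1.48 and -2.20. The fall from MII to two-cell M was called for 22 of 47 large subunit genes and for 12 of 25 small subunit genes, both near the 45.2% of all genes called lower.

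The partners of the members were described from lists by symbol. All 5 mitochondrial ribosomal proteins without the prefix were tested. Of these, 4 were lower in two-cell M than in MII, where 45.2% of all genes were lower and 7.86% higher, among them Dap3, the GTP-binding protein of the small subunit, which fell from 12.9 ± 2.86 to 0.52 ± 0.451 FPKM (SD, n = 3). Of 18 assembly factors tested, 2 were higher and 7 lower in two-cell M than in MII. Nsun4, a methyltransferase of the ribosomal RNA, fell by 4.93 (standard error 0.97, limma adjusted p = 0.000143), while Dhx30, an RNA helicase, rose by 2.96 (standard error 1.10, adjusted p = 0.0256). Of 10 mitochondrial translation factors tested, 6 were lower in two-cell M than in MII, beside the same 45.2%, such as the initiation factor Mtif3 (-5.64, standard error 1.34, adjusted p = 0.000976). Their medians between MII and GV were 0.92, 0.73 and 0.86, beside 0.88 for the members.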

How the data were processed

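RNA of the polysome and non-polysome fractions was sequenced from 6 stages with 3 libraries each. Per the submitters' processing notes, the authors used Trim Galore 0.4.1, STAR 2.5.3a and Partek with the GRCm38 mouse genome, and they deposited normalized FPKM values for 23125 genes in 36 libraries. The lowest value in each is 0.01. Samples were grouped by stage, fraction and letter in the column names, and 2 of the 38 samples (zygotes) had no column and were left out. A model of 12 group means was fitted in limma 3.58.1 (R 4.3.3, empirical Bayes with trend) to the log2 of these deposited values. It covered the 7967 genes whose geometric mean reached 0.1 FPKM, and p was adjusted by Benjamini-Hochberg over all of them. Tests are two-sided. The scripts were tested on simulated data. The members and lists were chosen with earlier results of these data known. Named were the 5 members with the highest polysome mean, those with the largest called changes without overlap between groups and at least 1 FPKM, members called in an interaction, and members by role. Promoter windows came from RefSeq. Mrpl47 was moved to the conserved class after the lists were made. Alternatives were 1 FPKM added, no minimum or one of 1 FPKM, quantile normalization, fewer libraries, letter or gradient blocks and leaving out each library. Python 3.11.15, numpy 2.4.6, pandas 2.3.3 and matplotlib 3.10.9 were used.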

Additional observations from a re-analysis of the deposited data

Results flagged for a closer look

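Members are listed here because a change into M-phase differed, between the fractions or from the change into another M-phase, by a limma interaction contrast at an adjusted p below 0.05 and a difference beyond 1 on the log2 scale. The values are differences of log2 fold changes. From two-cell to two-cell M, the change in polysomes against that in the non-polysome fraction differed for Mrpl49 (11.09), Mrps23 (8.81), Mrpl18 (5.31) and Mrpl32 (-7.91). The change from GV to MII in polysomes differed from that from zygote to zygote M for Mrps18c (6.27), Mrpl39 (6.21), Mrpl22 (5.65), Mrpl12 (4.32), Mrpl51 (2.68) and Mrpl57 (-2.37). It differed from that from two-cell to two-cell M for Mrpl17 (10.44), Mrps2 (10.09), Mrpl14 (8.11), Mrpl24 (7.65), Mrps25 (6.72), Mrps27 (5.75), Mrpl10 (5.0), Mrpl2 (3.88), Mrpl48 (3.68), Mrpl22 (2.98), Mrpl12 (2.35), Mrps26 (-2.78), Mrps6 (-4.79) and Mrpl45 (-5.23). Leaving out each of the 12 libraries in turn, the call against two-cell M was lost in all 12 fits for Mrpl45, in 11 for Mrpl10 and Mrpl22, in 10 for Mrpl12 and Mrpl24, in 7 for Mrps26 and in 5 for Mrps6. Against zygote M it was lost in 12 for Mrpl51, in 11 for Mrpl57 and in 9 for Mrpl39. With the letter as a block the calls of Mrpl12 and Mrpl22 against two-cell M were lost. Those of Mrpl39, Mrpl51 and Mrpl57 against zygote M were lost with it too. Reads of Mrpl48 could be shared with a pseudogene of that name, and exons of Mrpl48 overlap those of Rab6a. Groups of 3 libraries are too small to test a single value as an outlier within its group. Single libraries were checked only by leaving each out in turn.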

How the results depend on the processing

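Of 43 results for members chosen by the naming rule, 18 kept their direction and call in every setting tried, 27 in every fit that left out 1 library, and 0 changed direction. The rule took only results that were called and, where a pair of groups was compared, only those without overlap. Without overlap, leaving out 1 library or adding 1 FPKM cannot reverse a change. The 0 is therefore no measure of how stable these results are. Counts of members called depended more on the settings. Each is given with the share of all genes called in the same fit, other than those of fits that left out 1 library. With 1 FPKM added to each value they were 25 for MII against GV (20.1% of all genes), 5 for zygote M against zygote (11.3%), 16 for zygote against GV (16.4%), 25 for two-cell against GV (22.7%), 30 for zygote M against MII (22.3%), 27 for the step into MII against that into zygote M (24.5%) and 28 for that into MII against two-cell M (27%). For polysome against non-polysome they were then 5 in GV (12%), 1 in MII (2.38%), 5 in two-cell (15.7%) and 0 in zygote M (1.56%). Quantile normalization gave, in the same order, 22 (19.4%), 9 (14.6%) and 12 (17.7%) for the first 3 comparisons, 19 for zygote M against MII (26.1%), 17 (24.6%) and 26 (30.4%) for the steps, 4 (11%), 1 (3.59%) and 9 (7.86%) between fractions in GV, zygote M and two-cell M, and 7 for the two-cell interaction (4.28%).

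Fits to only the libraries compared called 31 (27.1%), 32 (33.1%), 27 (31%) and 47 (40.6%) for MII against GV, zygote M against zygote, zygote against GV and zygote M against MII, 8 for two-cell M against two-cell (20.9%) and 40 for the step into MII against zygote M (44.4%). Between fractions they called 2 (4.26%), 5 (6.45%), 15 (20.1%), 1 (1.82%), 2 (6.89%) and 0 (0.238%) from GV to two-cell M, and 1 (2.17%), 9 (4.69%) and 1 (1.37%) in the interactions of GV, zygote and two-cell. These fits estimate the spread from fewer samples. Leaving out two-cell and two-cell M libraries gave 29 (21.4%), 17 (18.2%), 23 (19.7%), 36 (28.5%) and 32 (28.1%) for MII against GV, zygote M against zygote, zygote against GV, zygote M against MII and the step into MII, 21 (23%), 1 (3.75%), 3 (6.31%) and 6 (8.95%) between fractions from GV to zygote M, and 7 (5.46%) and 6 (3.11%) in both interactions. Leaving out only two-cell M libraries gave 15 (13.2%), 4 (11.3%), 8 (12.3%), 26 (25.9%) and 13 (17.8%) for MII against GV, zygote M against zygote, zygote against GV, two-cell against GV and the step into MII, 5 (12.3%), 1 (4.22%) and 18 (26.1%) between fractions in GV, zygote and two-cell, and 1 in each of the interactions of GV (2.16%) and zygote (1.22%). Both alternatives were chosen after seeing the data.

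A minimum of 1 FPKM, which left 49 members in the test, gave 2 (13.1%), 9 (19.1%), 5 (19.9%) and 23 (56.3%) for zygote and two-cell against GV and for zygote M and two-cell M against MII, 1 between fractions in zygote M (1.94%), 1 in the zygote interaction (1.49%) and 28 with a stage effect (70.7%). With no minimum there were 0 between fractions in GV (1.88%), 1 in the zygote interaction (0.32%) and 9 for the step into MII against two-cell M (10.3%).

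Letters were taken as names only, as nothing states whether a letter marks the same animals, day or gradient. Residuals of the same letter in both fractions of a stage had mean correlations of 0.0381 to 0.105. Those of different letters had means of -0.0515 to -0.0189, and 27 of 36 libraries were closest to their own letter. A link between the fractions of 1 letter therefore remains possible. A replicate block by letter gave 0 for zygote M against zygote (3.39%), between fractions 0 in GV (1.22%), 1 in zygote M (0.213%), 6 for two-cell M (7.25%) and 3 for two-cell (6.88%), and 3 for the step into MII against zygote M (6.6%). A block by gradient gave 1 in the zygote interaction (0.477%).

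Leaving out each library in turn gave 3 to 5 for MII against GV, 0 to 1 for zygote M against zygote, 14 to 19 for two-cell M against two-cell, 0 to 3 for zygote against GV, 10 to 14 for two-cell against GV, 7 to 9 for zygote M against MII and 31 to 35 for two-cell M against MII. Between fractions it gave 0 to 1 in GV, 0 in MII and in zygotes, 1 to 3 in zygote M, 4 to 14 in two-cell and 9 to 18 in two-cell M. In the interactions it gave 0 in GV, 0 to 1 in zygote and 4 to 9 in two-cell, and 3 to 6 and 8 to 11 for the step into MII against those into zygote M and into two-cell M. A stage effect was found for 41 to 46 members, a count that does not show whether they were the same members. No share of all genes is given for the fits that left out 1 library. Their counts therefore do not show whether members moved with all genes. Beyond what was left out of each fit, the cause of these shifts was not tested. The depth behind the values is unknown, and values at the floor of 0.01 FPKM make fold changes of low members depend on that floor.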
